A study of Mus musculus with 18 samples.

Results

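The genes described here are 52 genes of mouse chromosome 2 that start between 60 and 80 Mb of the GRCm38 genome, an interval chosen because its mRNAs were lower in HM than in WT cells. They are 52 of the 55450 genes in the expression table and 52 of the 318 listed in that interval. Expression was measured by poly(A)-selected, stranded mRNA-seq in P19 cells, a mouse embryonic carcinoma line, with 6 samples each of 3 lines. WT cells carry Dicer (+/+). HetKO cells are Dicer (+/-), with a truncating CRISPR edit in a single allele, and HM cells are Dicer (HM/-), made from HetKO cells by an edit that places a hotspot substitution in the RNase IIIb domain of the remaining full-length allele, so they carry the truncated allele as well. The edited lines are clonal, so what a clone carries by descent and what its genotype does cannot be told apart. Values are TPM, a measure of transcript abundance per gene length in which each sample sums to about 1000000. Sequencing depth is therefore unknown here and no counting interval can be given.

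Before the values of the members, some facts of the series bear on them. Dicer1 was at 49.2 to 54.8 TPM in WT, 42.9 to 53.8 in HetKO and 35.4 to 44.2 in HM, and a gene total does not separate the alleles. All lines expressed Pou5f1, the transcription factor that defines embryonic carcinoma cells, with means of 2090 TPM in WT and HetKO and 2040 in HM. The summed TPM of 10 embryonal carcinoma markers was 3280 to 3730 in WT, 3200 to 4010 in HetKO and 3690 to 4250 in HM. Pou5f1 gave the largest part of this sum, and single markers moved both ways. Nanog went from a mean of 46.9 TPM in WT to 18.8 in HM and Sall4 from 24.5 to 8.85. Sox2 rose from 98.6 to 157, Lin28a from 282 to 343, Utf1 from 220 to 381 and L1td1 from 138 to 306. By the test described below, 2 of the 10 were lower in HM and 4 higher, beside 32% and 19.4% of all genes. Summed endoderm markers were at 5.49 to 15.8 TPM over all samples, with Afp at most 0.04, and neural markers at 26.6 to 58.5. Mesoderm markers reached 14.5 to 23.1 in WT, 11 to 195 in HetKO and 30.6 to 65.5 in HM, and fibroblast markers 10.2 to 40.1. Within the mesoderm sum, T went from a mean of 5.83 TPM in WT to 24.2 in HM and Eomes from 9.13 to 18.5. Mixl1 went from 0.725 to 1.32, while Tbx6 fell from 2.76 to 0.86. The part of these markers in the results was not tested, and in such bulk samples fewer cells of a type and less RNA per cell cannot be told apart. Samples of a line were also alike in pairs. Over 683 abundant genes, the robust SD of the log2 difference was 0.0595 to 0.1055 within the HM pairs (replicates 1 and 4, 2 and 3, and 5 and 6) and 0.1675 to 0.279 between other HM samples. In HetKO the pairs were 1 and 4, 2 and 5, and 3 and 6, at 0.051 to 0.0696 against 0.164 to 0.3577, and the same numbers were paired in WT, at 0.0493 to 0.0746 against 0.073 to 0.205. Nothing in the labels gives separate cultures, so the p-values measure the spread between these samples, which may be technical in part.

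The region codes for proteins of many unrelated tasks, and its genes share a place rather than a pathway. Among them are Sp3, a zinc finger factor that binds GC boxes in promoters, Atf2, a leucine zipper factor of the CREB family, and Nfe2l2, which encodes NRF2, the activator of antioxidant genes. Others encode the laminin receptor chain integrin alpha 6 (Itga6), a subunit of the BBSome that carries membrane proteins in cilia (Bbs5), RNA methyltransferases (Mettl5, Mettl8) and the histone acetyltransferase of newly made histone H4 (Hat1). Neighbouring genes can share chromatin and, where they start head to head, a promoter. The files used here hold mRNA levels only.

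The fall in HM did not cover the whole interval. Between HM and WT, 46 of the 52 members averaged 1 TPM or more across the 12 samples compared and were tested. The other 6 were scarcely expressed (Dpp4, Sp5, Gad1, Cybrd1, Rapgef4 and Itga4). Along the 1138 expressed genes of chromosome 2, the run of neighbouring genes that stood lowest in HM went from Cers6 to Lnpk, chr2:68861441-74579435 (GRCm38), a length of 5.72 Mb with 40 expressed genes. The mean log2 difference in TPM + 1, HM minus WT, was -0.82 in this run and -0.07 over the rest of the chromosome, with single differences limited to 1.5. The run holds 25 of the 46 expressed members, from Lrp2 to Atf2, and by position 4 of the 6 scarcely expressed ones. All these values come from the contrast that chose the interval, so they describe it and are not tested.

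**Figure D1:**
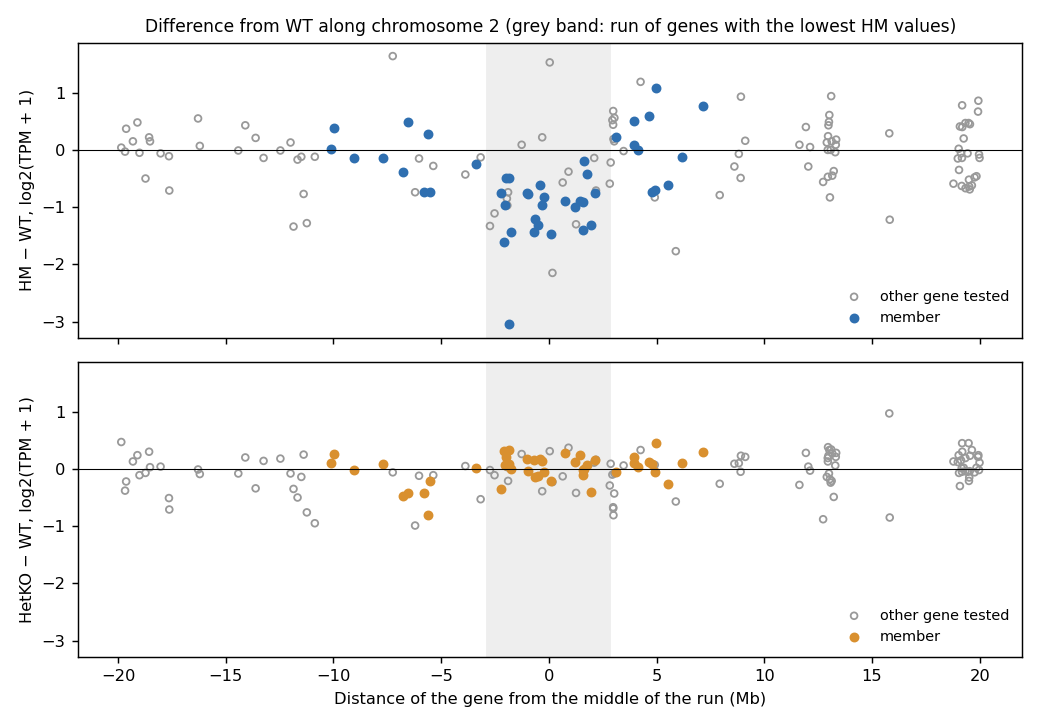
Difference from WT of each expressed gene, HM above and HetKO below, on the log2(TPM + 1) scale, against the distance of the gene from the middle of the run in Mb. Filled points are members and the grey band is the run from Cers6 to Lnpk, in which 37 of 40 genes lie below 0 in HM.

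Members inside the run had a median log2 difference of -0.91 between HM and WT, with a range of -3.05 to -0.20, and all 25 lay below 0. For 24 of them every HM sample was below every WT sample. The exception was Gpr155, a membrane protein gene expressed near the limit for testing, with 0.27 to 1.47 TPM in HM and 0.85 to 1.5 in WT. Over all 14043 genes tested, the median was -0.09 and the HM samples lay wholly below the WT samples in 18%. The HM mean was a median 50.5% of the WT mean (quartiles 38.7% and 59.2%), and 13 of the 25 were between 40% and 65% of WT, a range that held 14.3% of all genes. Their WT levels went from 1.26 TPM for Gpr155 to 233 TPM for Ssb.

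Members outside the run showed no common direction. The 10 expressed members before it had a median of -0.15 and the 11 after it a median of 0.08. Counted by limma at a Benjamini-Hochberg adjusted p under 0.05, 31 of the 46 members were lower in HM and 7 higher, where 32% of all genes tested were lower and 19.4% higher. For 5 of the 46 every HM sample was above every WT sample, beside 10.6% of all genes. The run supplied 24 of the 31 lower ones and none of the 7 higher ones. Outside it, 7 were lower and 7 higher of 21. Because the interval was picked on this contrast, these shares are given side by side only. With the means of the alike pairs as replicates, 26 members were lower and 4 higher, beside 2232 and 1182 of all 14043 genes.

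The borders of the run can be read from the neighbouring genes. On the near side, Ttc21b was at -0.74, Scn1a at -0.28, B3galt1 at -0.43 and Stk39 at -0.25 (all log2 differences, HM minus WT). The next genes were Cers6 at -1.33 and Spc25 at -1.11, followed by the first members of the run, Lrp2 and Bbs5. On the far side, Atf2 at -0.76, Atp5g3 at -0.71 and Lnpk at -0.59 were followed by the homeobox genes Hoxd13 (0.52), Hoxd8 (0.44), Hoxd4 (0.19) and Hoxd1 (0.56) and by Mtx2 at 0.23. Low values also stood before the border, as Ttc21b, Csrnp3 (-0.73) and the sodium channel gene Scn3a (-0.74) did next to higher neighbours such as Cobll1 (0.48) and Galnt3 (0.28). In single HM samples the run began at Cers6 in replicates 1, 2 and 4, at Ttc21b in replicate 5 and at Scn3a in replicates 3 and 6, and it ended between Atf2 and the pseudogene Mrpl23-ps1, next to Lnpk. The lowest runs of the HetKO samples began at 157.53 Mb or later and held no member. At the edges of the chosen interval itself, Baz2b (-0.17) lay just outside and the March7 gene (-0.12) just inside its start, and Itprid2 (-0.79) just inside and Dnajc10 (-0.29) just outside its end. The next genes at the start were lower, with Wdsub1 at -1.34 outside and Ly75 (-0.77) and Pla2r1 (-1.28) inside, and for these 3 genes every HM sample was below every WT sample. None of the 3 is a member.

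The other 15 expressed genes of the run had a median of -0.71. Pdk1, a kinase that shuts down pyruvate dehydrogenase, was at -2.15, from a mean of 115 TPM in WT to 25.4 in HM. The 3 genes of the run above 0 were all processed pseudogenes, and the 36 genes that are no pseudogenes were all below 0, with a median of -0.90. The 40 expressed genes just before the run had a median of -0.11 and the 40 just after it 0.11.

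**Figure D2:**
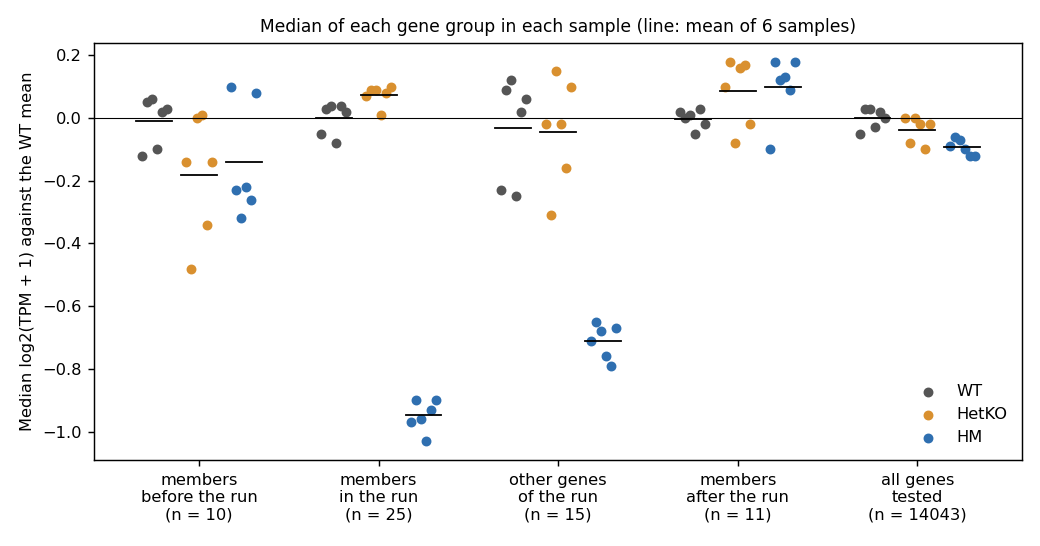
Median log2(TPM + 1) against the WT mean of each gene group in each of the 18 samples, with a line at the mean of 6 samples. For members in the run the HM samples sit between -1.03 and -0.90 and all WT and HetKO samples between -0.08 and 0.10, while before and after the run the lines overlap.

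The depth of the fall was alike in all HM samples. The median of the 25 members of the run, against the WT mean, was -0.97, -0.90, -0.96, -1.03, -0.93 and -0.90 in HM replicates 1 to 6. It was 0.01 to 0.10 in HetKO and -0.08 to 0.04 in WT. So no HM sample stood apart in the median, and the groups did not overlap. Single genes varied more. The members with the 5 lowest differences were Mettl5, Bbs5, Itga6, Ubr3 and Mettl8, and all 5 lie in the run.

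Mettl5, which methylates an adenosine of 18S ribosomal RNA, had the lowest difference of all members, -3.05 (SE 0.63). In HM replicates 1 to 6 it was at 0.38, 19.9, 22.2, 1.45, 1.58 and 1.82 TPM, whereas WT samples had 32.8 to 46.5 (median 39.5) and HetKO samples 34.8 to 44.9 (median 41.3). So 4 HM samples were near 0, and replicates 2 and 3, which form a pair by their overall profile, kept a level between these and WT. Bbs5 had 9.86 to 14 TPM in WT (median 11.7), 13.5 to 15.8 in HetKO (median 15.1) and 1.64 to 5.06 in HM (median 3.5), and here HM replicates 2 and 3 were the lowest, at 1.80 and 1.64. Lrp2, the endocytic receptor megalin, was likewise lowest in HM replicates 2 and 3, at 5.63 and 5.92 TPM. The other HM samples had 11.2 to 15.3 TPM and the WT samples 16.6 to 19.1. The HetKO samples of Lrp2 overlapped those of HM, at 10.01 to 19.19 TPM, with 11.12 and 10.01 in replicates 2 and 5.

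Itga6 was among the most abundant members of the run. It had 121 to 152 TPM in WT (median 142), 113 to 122 in HetKO (median 120) and 39.4 to 66.7 in HM (median 49.7), 36.0% of the WT mean. Ubr3, a ubiquitin ligase of the N-degron family, had 25.2 to 39.4 TPM in WT (median 35.8), 28.9 to 37.8 in HetKO (median 32.2) and 9.63 to 13.6 in HM (median 11.9). Mettl8, which modifies mitochondrial transfer RNA, had 12.7 to 17.6 TPM in WT (median 14.2), 14.2 to 17.0 in HetKO (median 16.5) and 4.03 to 5.69 in HM (median 4.57). For each of these 3 genes the HM samples stood below those of both other lines, with no overlap.

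**Figure D3:**
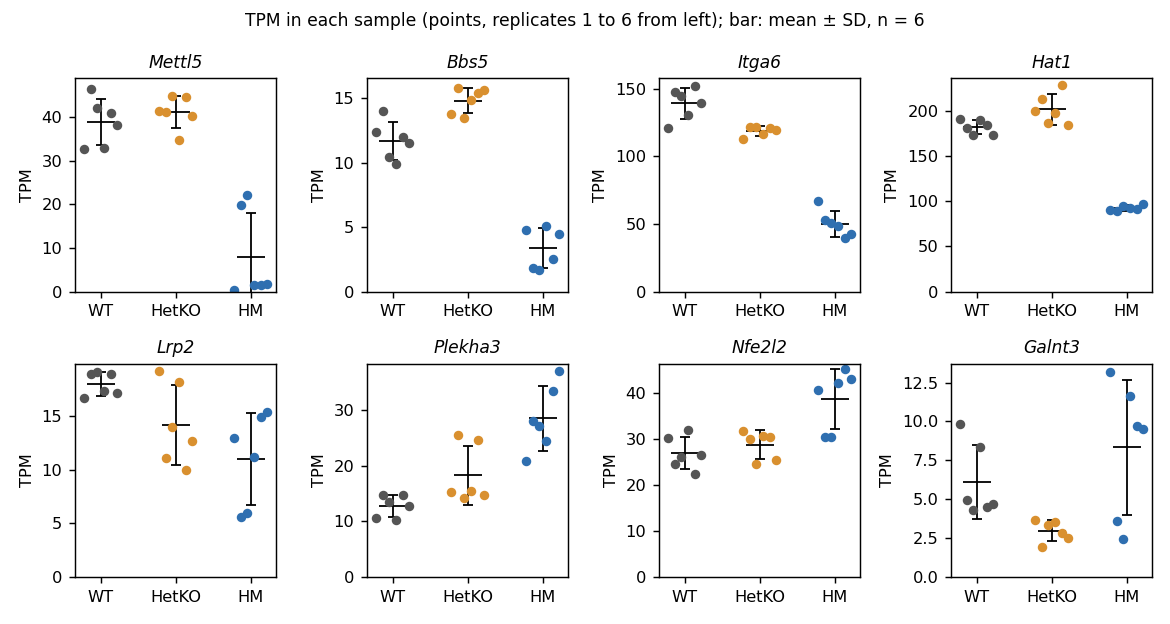
TPM of 8 members in every sample, replicates 1 to 6 from left to right within each line, with the mean and SD of 6 samples (the lower bar of Mettl5 in HM is cut at 0). Hat1 in HM lies between 88.9 and 96.7 TPM, Mettl5 in HM is near 0 in 4 samples and at 19.9 and 22.2 in 2, and Plekha3 is higher in all HM samples than in WT.

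Promoter windows of RefSeq (GRCm38.p6), from 250 bases before to 50 after the start of the gene, were found for 50 of the 52 members, and not for Itga6 and Ube2e3. Of these, 39 (78%) hold a GC box, GGGCGG on either strand, the kind of site that Sp3 binds, as do 35.7% of the 32851 mouse promoters in the table. In the run it was 21 of 24. At least 10 CpG were present in 44 of the 50 (88%), against 43.5% of all promoters, and the CRE, TGACGTCA, which Atf2 binds, was in none of the 50 and in 1.79% of all. The antioxidant response core TGACNNNGC, which NRF2 binds, was in 7 of the 50 (14%) and in 12.4% of all. Motifs were searched on both strands, and a match is a description of letters, not of binding. The members are mostly expressed protein-coding genes and the table holds all genes, so nothing is drawn from these shares.

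A pair of windows inside the run each hold the RefSeq starts of 2 divergent members, and they are printed below. The run was defined by its low HM values, so nothing is drawn from both genes of a pair being low. By RefSeq, Mettl8 and Dcaf17 start 138 bases apart and Cir1 and Scrn3 start 60 bases apart, in each case on opposite strands. In the GENCODE M21 annotation the genes of each pair overlap at their starts instead. There Mettl8 starts at 71055583 and Dcaf17 at 71055328, and Cir1 starts at 73312701 and Scrn3 at 73312601. The windows of Dcaf17 (chr2:71055494-71055793, plus strand) and Scrn3 (chr2:73312402-73312701, plus strand) contain both RefSeq starts. Those of Mettl5 (chr2:69885566-69885865, minus strand), the lowest member, and Plekha3 (chr2:76675065-76675364, plus strand), the highest member, are given beside them. Capitals mark GC boxes, of which Mettl5 has none.
Mettl5: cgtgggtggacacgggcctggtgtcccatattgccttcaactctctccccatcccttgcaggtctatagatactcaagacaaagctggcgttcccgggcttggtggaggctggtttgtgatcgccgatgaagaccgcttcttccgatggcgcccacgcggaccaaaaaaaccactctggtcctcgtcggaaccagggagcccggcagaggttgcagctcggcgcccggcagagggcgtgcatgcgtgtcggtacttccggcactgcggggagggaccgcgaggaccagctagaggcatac
Dcaf17: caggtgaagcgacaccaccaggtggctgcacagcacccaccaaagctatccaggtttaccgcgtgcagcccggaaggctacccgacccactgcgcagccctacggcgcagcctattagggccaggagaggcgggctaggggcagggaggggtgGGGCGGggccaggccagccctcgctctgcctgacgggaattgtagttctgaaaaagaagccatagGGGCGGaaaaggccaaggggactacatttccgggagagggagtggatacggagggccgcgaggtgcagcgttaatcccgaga
Scrn3: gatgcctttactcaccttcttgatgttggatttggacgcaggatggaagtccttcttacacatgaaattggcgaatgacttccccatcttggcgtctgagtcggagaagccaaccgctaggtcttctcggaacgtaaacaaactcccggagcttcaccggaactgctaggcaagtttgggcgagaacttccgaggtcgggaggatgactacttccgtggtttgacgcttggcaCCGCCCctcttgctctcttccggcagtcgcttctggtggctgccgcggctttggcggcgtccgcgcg
Plekha3: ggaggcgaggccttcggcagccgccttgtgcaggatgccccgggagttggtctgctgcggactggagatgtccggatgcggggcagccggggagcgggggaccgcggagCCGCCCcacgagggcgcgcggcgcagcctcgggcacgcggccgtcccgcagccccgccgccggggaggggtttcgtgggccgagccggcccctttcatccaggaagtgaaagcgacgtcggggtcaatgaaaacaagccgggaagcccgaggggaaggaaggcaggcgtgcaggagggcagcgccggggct

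The mRNA of Mettl8 was at 32.5% of WT in HM and that of Dcaf17, a substrate receptor of the CUL4 ubiquitin ligase, at 40.8%. Dcaf17 had 13.7 to 15.3 TPM in WT (median 14.8), 12.3 to 14.2 in HetKO (median 13.0) and 4.04 to 7.45 in HM (median 6.31). In the other pair Cir1, a corepressor of the Notch pathway, was at 35.4% and Scrn3 at 48.1%. In both pairs neither gene overlapped between HM and WT, as held for 24 of the 25 members of the run and 18% of all genes for falls. The printed window of Dcaf17 has 2 GC boxes and that of Scrn3 a single one.

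The members are next given by role. As the run was defined by its low values, 24 of its 25 members lay wholly below WT in HM, beside 18% of all genes. The transcription regulators of the run were among these. Sp3 had 43.0 to 45.8 TPM in WT (median 44.5), 42.0 to 55.5 in HetKO (median 48.8) and 19.1 to 24.4 in HM (median 22.6), 49.1% of the WT mean. Atf2 was at 57.9% of WT and Cdca7, which recruits the HELLS remodelling enzyme to chromatin, at 53.6%. Csrnp3, which lies before the run, had a difference of -0.73, and its HM samples reached 3.05 TPM, the lowest WT value. Nfe2l2, after the run, was higher in HM, with 22.3 to 32.0 TPM in WT (median 26.3), 24.4 to 31.8 in HetKO (median 30.2) and 30.4 to 45.2 in HM (median 41.4), and 2 HM samples lay within the WT range. Sp5, a Wnt target gene, was at most 0.69 TPM in WT and 0.52 in HM. In HetKO it reached 19.8 TPM in replicate 2 and 12.8 in replicate 5, with at most 0.82 in the other 4.

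Both chromatin genes of the run were among its 24 of 25 members with every HM sample below every WT sample, as in 18% of all genes. Hat1 had 173 to 190 TPM in WT (median 183), 184 to 229 in HetKO (median 199) and 88.9 to 96.7 in HM (median 92.2), 50.9% of WT. Tlk1, a kinase of the histone chaperone ASF1, was at 57.7% of WT. Of the RNA-binding members, Ssb (the La protein, which binds the ends of RNA polymerase III transcripts) was at 71.1% and the cyclophilin gene Ppig at 70.7%. These were the highest shares among the members of the run apart from Gpr155. Fastkd1, a mitochondrial RNA-binding protein gene, was at 47.3%. Outside the run Hnrnpa3 was at 106%, Cwc22, a splicing factor, at 91.0% and Rbm45 at 155%, with 19.4 to 23.9 TPM in WT (median 20.4), 17.9 to 30.1 in HetKO (median 22.6) and 26.2 to 37.8 in HM (median 32.3).

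The genes of cilia and microtubules differed before the border. Fign, a microtubule-severing enzyme gene, lies before the run and had 3.83 to 6.97 TPM in WT and 3.83 to 6.01 in HM, 87.3% of the WT mean. Ttc21b, a subunit of the IFT-A complex that carries cargo back along the cilium, also lies before the run and was at 58.5% of WT, and Dync1i2, an intermediate chain of cytoplasmic dynein, lies in it and was at 39.9%. Among mitochondrial and metabolic genes, Metap1d was at 50.5%, Ola1 at 53.5% and the aspartate and glutamate carrier Slc25a12 at 61.1%, all in the run. Mtx2, a protein import factor of the outer mitochondrial membrane and the first member after the run, was at 118%, and Agps, an enzyme of ether lipid synthesis, at 99.6%. The signalling gene Chn1, which inactivates RAC, was at 38.7% in the run. Its HM samples, at 10.2 to 14.8 TPM, overlapped the HetKO samples, at 13.4 to 30.6, of which replicates 2 and 5 had 16.6 and 13.4. Gad1, which makes GABA, was at 0.44 to 2.11 TPM in WT, 0.55 to 3.09 in HetKO and 0 to 0.32 in HM, below the level set for testing between HM and WT.

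The highest members all lay outside the run. Plekha3, which binds a phosphoinositide of the Golgi, had 10.2 to 14.7 TPM in WT (median 13.2), 14.2 to 25.6 in HetKO (median 15.3) and 20.9 to 37.0 in HM (median 27.6), a log2 difference of 1.09 (SE 0.14). Ube2e3, a ubiquitin-conjugating enzyme gene and the last expressed member, had 28.9 to 38.7 TPM in WT (median 33.2), 30.6 to 61.0 in HetKO (median 37.4) and 48.9 to 69.3 in HM (median 55.0), a difference of 0.77 (SE 0.10). Its neighbour Cwc22 had 58.1 to 66.2 TPM in WT, 62.2 to 71.8 in HetKO and 54.8 to 59.2 in HM. In both Plekha3 and Ube2e3, HetKO replicates 2 and 5 stood above the other HetKO samples, at 25.6 and 24.7 TPM against at most 15.4 for Plekha3 and 61.0 and 60.2 against at most 39.2 for Ube2e3. Cobll1 had 1.61 to 3.21 TPM in WT (median 2.45), 1.13 to 1.86 in HetKO (median 1.69) and 3.08 to 5.86 in HM (median 3.56). Of the first expressed members, Tank had 12 to 14.9 TPM in WT, 10.5 to 17.8 in HetKO and 11.3 to 15.8 in HM. Psmd14, the deubiquitinating subunit of the proteasome, had 113 to 131 in WT, 123 to 171 in HetKO and 143 to 165 in HM.

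**Figure D4:**
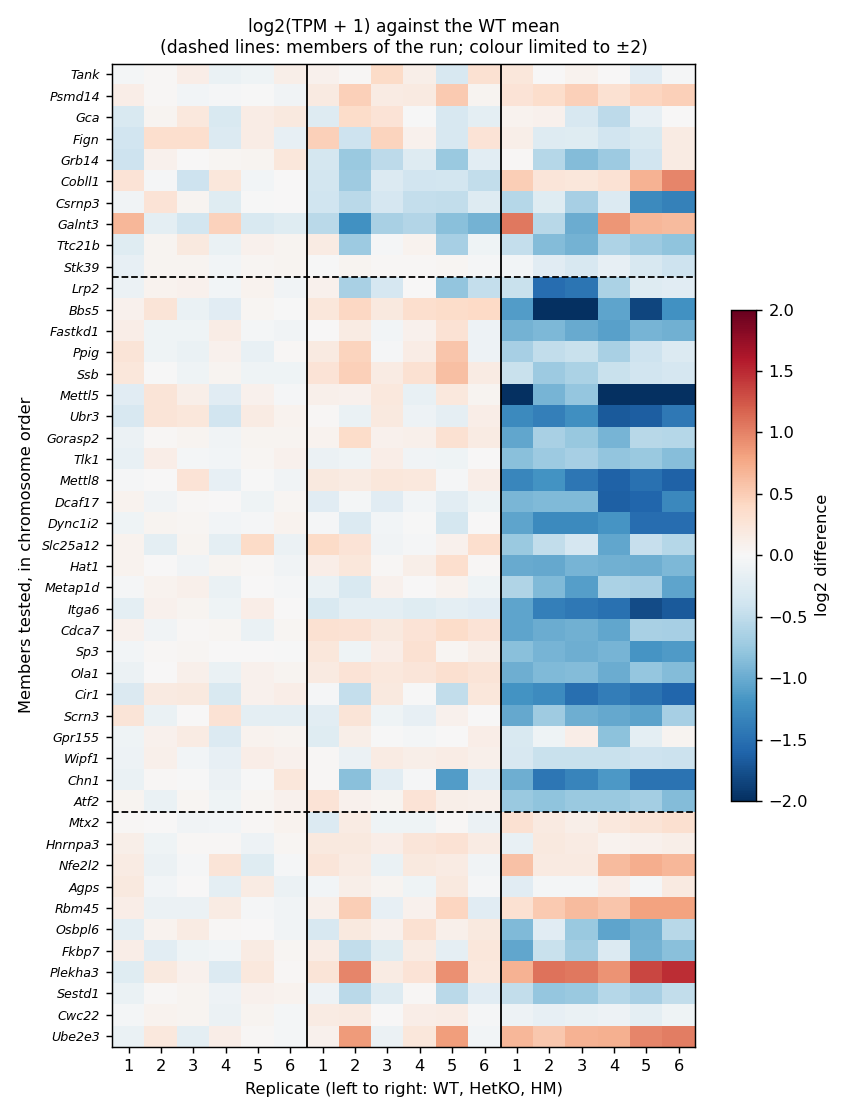
Heat map of the 46 expressed members in chromosome order (rows) and the 18 samples (columns, WT, HetKO and HM from left), as log2(TPM + 1) against the WT mean, with colour limited to 2 in either direction. Between the dashed lines, which enclose the 25 members of the run, the HM columns are blue in nearly all rows and the HetKO columns are not.

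As a set, the members did not fall in HetKO cells, although Chn1 and Lrp2 were low in HetKO replicates 2 and 5. The comparison of HetKO with WT did not choose the interval, although it uses the same WT samples. The median of the tested members was 0.08 between HetKO and WT, against -0.03 over all 13999 genes tested, and 0.07 for the 25 members of the run. By limma, 8 of 48 members passed, which is 16.7% beside 10.2% of all genes. Higher in HetKO were 5 (3.71% of all genes were) and lower 3 (6.44% of all genes). The highest was Ssb, with 217 to 272 TPM in WT (median 225) and 261 to 351 in HetKO (median 284), a log2 difference of 0.33 (SE 0.08, adjusted p = 0.0229 from limma). Bbs5 differed by 0.32 (SE 0.09, adjusted p = 0.0322 from limma) and Cdca7 by 0.28 (SE 0.05, adjusted p = 0.00314 from limma), with 88.8 to 104 TPM in WT (median 99.2) and 112 to 126 in HetKO (median 118). Ola1 and Hnrnpa3 were the other 2, at 0.24 and 0.20. Of these 5 genes 4, all but Hnrnpa3, lay in the run that was low in HM, as did 25 of the 48 members tested. Itga6, called lower in HetKO, lay in the run too, and nothing is drawn from this count.

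The 3 lower members in HetKO were Galnt3, Csrnp3 and Itga6. Galnt3, which starts O-linked glycosylation of secreted proteins, had 4.32 to 9.81 TPM in WT (median 4.82) and 1.94 to 3.67 in HetKO (median 3.08), a difference of -0.80 (SE 0.20, adjusted p = 0.0238 from limma). Csrnp3 had 3.05 to 4.83 TPM in WT (median 3.79) and 2.31 to 3.00 in HetKO (median 2.55), a difference of -0.42 (SE 0.10, adjusted p = 0.0257 from limma). In both genes every HetKO sample was below every WT sample, as in 5.14% of all genes. Itga6 differed by -0.22 (SE 0.06, adjusted p = 0.027 from limma) and the samples of the lines overlapped. With pair means as replicates, limma called none of the 48 members and 35 of all genes (0.25%), and 8 members had an unadjusted p under 0.05, a level reached by 10.4% of all genes. Without HetKO replicates 2 and 5, 5 members were called, beside 1089 of all 14087 genes.

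Between HM and the HetKO cells they came from, the same stretch stood out. The HM samples are those that chose the interval, so this too is a description, and no p-value is given. The median of the tested members was -0.69, against -0.05 over all 13762 genes tested, and -1.03 for the 25 members of the run. Lower in HM were 29 of 47 members and higher 6, where 20.6% of all genes tested were lower and 14% higher. With 6 samples per line, 23 of the 25 members of the run were lower. Every HM sample was below every HetKO sample for 22 of the 25, beside 9.27% of all genes. With pair means as replicates 17 of all the members were lower and 0 higher, beside 257 and 197 of the 13762 genes tested. The run with the lowest values between these lines went from Cers6 to Atp5g3.

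Partners, targets and paralogues of the members, which lie on other chromosomes or elsewhere on chromosome 2, were listed to see how they stood in the same cells. These genes did not choose the interval, and the lists did not move in a single direction. Among 21 NRF2 targets tested, 9 were higher and 3 lower in HM than in WT, with a median of 0.17, beside 19.4% and 32% of all genes. Slc7a11, the cystine transporter, had 2.33 to 5.09 TPM in WT and 7.49 to 12 in HM, a rise of 1.21 on the log2 scale (SE 0.16, adjusted p = 8.75e-05 from limma). The quinone reductase gene Nqo1 rose by 0.91 (adjusted p = 0.00345 from limma), with overlapping samples. Txnrd1 (0.76) and Pgd (0.74) rose without overlap. Txn1, Taldo1 and Abcc1 were the 3 that fell, at -0.21, -0.18 and -0.34. With samples centred on their median no target was lower and 13 were higher, beside 2879 lower and 4508 higher of all 14043 genes. After quantile normalization 4 targets were lower and 10 higher, beside 3479 and 3632 of all genes. With pair means as replicates 5 targets were called, all of them higher, beside 2232 lower and 1182 higher of all genes.

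When samples were centred, 4508 of all 14043 genes were higher in HM and 2879 lower, and after quantile normalization 3632 and 3479. Of the other 18 subunits of the 19S proteasome beside Psmd14, 13 were higher in HM and none lower, with a median of 0.31 (18 and none when centred, 11 and 1 after quantile normalization). The largest rise was that of the ATPase gene Psmc5, with 199 to 289 TPM in WT and 315 to 409 in HM, by 0.66 (SE 0.10, adjusted p = 0.000241 from limma), followed by Psmc4 (0.58), Psmc1 (0.52) and Psmc2 (0.50). With pair means 7 of these subunits were called, while 2232 of all genes were lower and 1182 higher. In the cilia complexes the called genes were lower in HM, as were 32% of all genes tested, while 19.4% of all were higher. Of 7 other BBSome subunits beside Bbs5, 5 were lower and none higher, with a median of -0.39 (3 lower and none higher under either scaling), and 2 were lower with pair means. Bbs7 had 5.92 to 7.77 TPM in WT and 1.35 to 3.51 in HM, a difference of -1.24 (SE 0.15, adjusted p = 4.53e-05 from limma), and Bbs4 fell by 0.59. Of 5 IFT-A subunits beside Ttc21b, 4 were lower and none higher, with a median of -0.59 (3 lower under either scaling and 2 with pair means), among them Wdr19 at -1.01 (SE 0.12, adjusted p = 4.27e-05 from limma). Wdr19, which is not on chromosome 2, had 2.84 to 4.56 TPM in HM and 6.95 to 9.71 in WT.

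**Figure D5:**
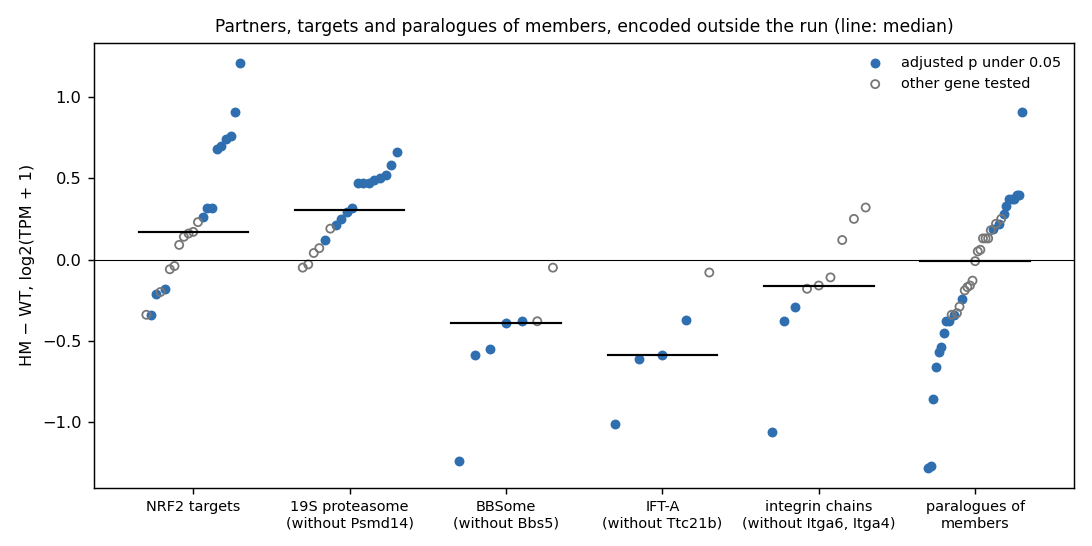
Log2(TPM + 1) difference between HM and WT of each tested gene in 6 lists of partners, targets and paralogues, filled where the adjusted p was under 0.05, with a line at the median. The 19S proteasome list lies mostly above 0 (median 0.31) and the BBSome and IFT-A lists below 0 (medians -0.39 and -0.59).

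Integrin chains and paralogues did not share a direction. Of all genes tested, 32% were lower in HM and 19.4% higher, and the shares of these lists are given beside that only. Of 9 other integrin chains tested, 3 were lower in HM and none higher, with a median of -0.16. After quantile normalization 2 were lower and 2 higher (median 0.04), beside 3479 and 3632 of all 14043 genes. The 3 lower chains were Itga3 at -1.06 (SE 0.12, adjusted p = 2.26e-05 from limma), Itgb5 at -0.38 and Itgav at -0.29. Itgb1, the partner chain of integrin alpha 6, had 59.8 to 93.1 TPM in WT and 48.6 to 86.0 in HM, and the groups overlapped (-0.16, adjusted p = 0.389 from limma). Of 37 paralogues tested, 11 were lower and 10 higher, with a median of -0.01 (7 and 15 when centred, beside 2879 and 4508 of all genes). The lowest were Scrn1 (-1.28), a paralogue of Scrn3, and Atf7 (-1.27), a paralogue of Atf2. Sp4, which like Sp3 binds GC boxes, fell by 0.86, and Sp1 by 0.24. Csrnp1 rose by 0.91. With pair means as replicates 1 integrin chain and 10 paralogues were called, beside 3414 of all 14043 genes.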

How the data were processed

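Poly(A) RNA of 18 P19 samples was sequenced from stranded paired-end libraries. The authors used BBMerge to join mates and RSEM for quantification, and TPM per gene were deposited. The submitters' processing notes name cutadapt, STAR and mm10, and versions are not given in the sources used here. Groups came from the genotype in the labels. Gene identifiers matched GENCODE M21 (GRCm38). A gene was tested where it averaged 1 TPM or more over the 12 samples compared, with limma (version 3.58.1, R 4.3.3) on log2(TPM + 1), a trend in the variance prior and Benjamini-Hochberg adjustment over all genes tested. This scale understates changes of low genes. The lowest run of chromosome 2 was the run of at least 5 expressed genes that left the smallest sum of squares as a separate level. Both steps were run on simulated data as a check of the code. The simulated samples were independent, unlike the alike pairs here, and the simulated run had sharp borders. So this check gives no rate of false calls and no error of the borders for these data. All else was computed in Python (3.11.15) with pandas (2.3.3) and numpy (2.4.6).

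The members, interval and lists were chosen with earlier results of these data known. Values by sample are given for the 5 lowest and 5 highest members in HM against WT, up to 5 called in HetKO, the first and last 2 expressed, and further members by role. Genes without model names nearest each border are named, with up to 4 called genes of each list. Itgb1, Sp1, Txn1, Taldo1, Abcc1, Pdk1, Scn3a and Dicer1 were added after their values were seen. Alternatives were a pseudocount of 0.1, no filter or a minimum of 5 TPM, centred or quantile-normalized samples, pair means, a replicate block, an unequal-variance test, all 18 samples fitted together, a 1.5-fold limit and fits without samples that stood apart. A run without pseudogenes and centred samples for the lists were added after seeing the data.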

Additional observations from a re-analysis of the deposited data

Results flagged for a closer look

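The 6 samples of each line were examined for a single sample far from the other 5, over the 3 medians of the members and the TPM of the 46 expressed members, 147 groups in all. With 6 independent samples chance would flag about 1 in 20 groups, 7.3 here, and 3 were flagged. As the samples are alike in pairs, this rate does not apply, and a sample that stands apart together with its pair is missed. The median of the members of the run was 0.01 against the WT mean in HetKO replicate 4, below 0.07 to 0.10 in the other HetKO samples and well apart from all HM samples. Mettl8 was at 17.64 TPM in WT replicate 3, above 12.7 to 14.4 in the other WT samples. Wipf1, which binds the actin regulator WASP, was at 2.11 TPM in HM replicate 1, above 1.84 to 1.91 in the other HM samples. Mettl5 was not among them, since its HM samples split into 4 and 2. Plekha3 and Ube2e3 were not flagged either, although HetKO replicates 2 and 5 stood above the other HetKO samples.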

How the results depend on the processing

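The count of members lower in HM than in WT was 26 to 32 under all 11 alternatives, and the median of the members was below 0 under the 7 for which it was computed. This median was -0.72, and it was -0.62 with no filter on low TPM, -0.54 with centred samples and -0.51 with quantile normalization. Among all genes, 4498 were lower in HM, 2879 when centred, 3479 with quantile normalization and 2232 with pair means. Centring moved the median of all genes by 0.17 and quantile normalization by 0.11, and the share of called genes that were higher in HM was 37.7%, 61.0% when centred and 51.1% when quantile normalized. Of single members, Cwc22 was the one called whose sign turned, at 0.05 when centred. Between HM and HetKO the median of -0.69 was -0.75 with a pseudocount of 0.1, -0.58 with no filter, -0.75 with a minimum of 5 TPM and -0.57 when centred, and 17 members were lower and 0 higher with pair means in place of 29 and 6. The share of higher calls there was 40.4%, and 60.9% when centred. Of all genes, 2839 were lower in HM than in HetKO and 1926 higher, and with pair means 257 and 197. Between HetKO and WT the median of 0.08 was 0.05 with no filter, 0.13 when centred and 0.11 with quantile normalization, and the 8 members called became 0 with pair means, 5 in a single fit of all 18 samples, 4 with the unequal-variance test, 5 without HetKO replicates 2 and 5 and 1 with at least 1.5-fold. Higher calls there were 36.5% of all, 50.7% when centred and 48.1% with quantile normalization. Of all genes, 1421 were called, 35 with pair means and 1475 in the single fit. The unequal-variance test called 852, and 1089 were called without HetKO replicates 2 and 5. Over the lists, 58 genes passed between HM and WT and 27 with pair means, beside 7220 and 3414 of all 14043 genes. The cause of these moves was not tested. The fits with pair means or left-out samples also had fewer samples.

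The start of the run at 68.86 Mb moved to 66.18 with a minimum of 5 TPM and in HM replicate 5, and to 65.46 in HM replicates 3 and 6. Its end at 74.58 Mb moved to 73.91 in HM replicate 1, to 74.59 in replicates 2 and 6, to 73.89 in replicate 5 and, without pseudogenes, to 73.89. Replicate numbers from the labels do not pair samples, as the mean correlation of deviations between equal numbers was 0.003 for HM and WT, 0.062 for HetKO and WT and 0.019 for HM and HetKO. With the replicate block, 30 members were lower in HM than in WT, 29 lower in HM than in HetKO and 7 called in HetKO, and 57 genes of the lists passed. Of all genes, 4322 were then lower in HM than in WT, 2475 lower in HM than in HetKO and 1206 called in HetKO. As TPM keeps no depth, small differences between low genes cannot be judged.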
